A study of Mus musculus with 24 samples.

Results

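The genes described here are 7 precursors of secreted peptides: Pnoc, Tac1, Npy, Sst, Gal, Cartpt and Nppc. They were chosen by the levels of Pnoc and Tac1, which were lower in mutant libraries of ribosome-bound RNA, and they make up 7 of the 53946 genes in the deposited table. The libraries came from the ventral otocyst, the part of the inner ear that contains the cochlea, of mouse embryos of the strain C57BL/6J x 129X1/SvJ, collected on embryonic day 14.5. In translating ribosome affinity purification (TRAP), ribosomes that carry the tagged protein L10a-eGFP are pulled down with anti-GFP antibodies, so that RNA on the ribosomes of the tagged cells is enriched. The tag was expressed in the Fgf20-Cre lineage, and the second kind of library is labelled pre-TRAP, without a protocol of its own in the labels. Mutants were Fgf20-/- (mut) and controls were Fgf20+/- (het), so the controls also lacked 1 functional copy of Fgf20, and no wild type was included. There were 8 TRAP het, 8 TRAP mut, 4 pre-TRAP het and 4 pre-TRAP mut libraries, divided evenly between 2 experiments, which the labels call batches. Embryos were pooled by genotype, 3 to 7 per library. The labels do not tie a pre-TRAP library to a TRAP library, and no label says that pools came from separate litters, so p-values measure the spread between these pools.

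Neuropeptides are cut from larger precursor proteins by prohormone convertases, then trimmed and often amidated inside dense core vesicles. The released peptides act on G protein-coupled receptors or, for C-type natriuretic peptide, on a receptor guanylate cyclase. Pnoc encodes prepronociceptin, whose peptide nociceptin binds the receptor Oprl1. Tac1 encodes the precursor of substance P and neurokinin A, which act on tachykinin receptors such as Tacr1. Npy, Sst and Gal encode neuropeptide Y, somatostatin and galanin, Cartpt encodes the CART peptides, and Nppc encodes C-type natriuretic peptide, which signals through Npr2 and is cleared by Npr3. In the inner ear, C-type natriuretic peptide and Npr2 are known for guiding the branching of spiral ganglion axons.

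RefSeq promoter windows (GRCm38.p6, the 250 bases before the annotated gene start, written in the direction of the gene) were matched for 6 of the 7 genes. Pnoc had no entry. The windows of 4 genes are shown: Tac1, which was lower in mut libraries, Npy, which was the most depleted from TRAP RNA, and Sst and Cartpt, which were at or near 0 counts and whose windows hold a cAMP response element. Capitals mark that element.
Tac1: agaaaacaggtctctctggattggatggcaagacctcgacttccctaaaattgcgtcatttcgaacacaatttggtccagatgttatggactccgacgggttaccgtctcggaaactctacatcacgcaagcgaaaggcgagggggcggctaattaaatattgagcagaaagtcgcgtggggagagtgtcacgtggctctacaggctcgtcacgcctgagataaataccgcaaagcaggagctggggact
Npy: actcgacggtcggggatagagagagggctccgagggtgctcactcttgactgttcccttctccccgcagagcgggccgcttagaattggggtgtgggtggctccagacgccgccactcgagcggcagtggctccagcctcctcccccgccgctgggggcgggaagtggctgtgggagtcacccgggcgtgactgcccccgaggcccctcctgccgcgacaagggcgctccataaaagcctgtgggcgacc
Sst: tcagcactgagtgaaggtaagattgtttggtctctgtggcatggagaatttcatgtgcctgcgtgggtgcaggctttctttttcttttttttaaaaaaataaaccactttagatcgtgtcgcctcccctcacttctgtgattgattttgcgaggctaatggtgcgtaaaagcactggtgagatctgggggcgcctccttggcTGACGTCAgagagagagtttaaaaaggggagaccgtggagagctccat
Cartpt: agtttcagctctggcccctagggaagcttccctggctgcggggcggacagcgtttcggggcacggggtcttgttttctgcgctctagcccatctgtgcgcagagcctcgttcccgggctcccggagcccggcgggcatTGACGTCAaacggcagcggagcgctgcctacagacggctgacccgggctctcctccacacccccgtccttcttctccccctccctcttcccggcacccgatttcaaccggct
The Tac1 window lies at chr6:7554811-7555060 on the plus strand and the Npy window at chr6:49822460-49822709 on the plus strand. The Sst window lies at chr16:23890845-23891094 and the Cartpt window at chr13:99900684-99900933, both on the minus strand. Each window was searched on both strands for the cAMP response element TGACGTCA, the AP-1 site TGANTCA, the ETS core CCGGAA, the E-box CAGCTG and the TATA box TATAAA. The cAMP response element was found 48 bases upstream of the gene start in Sst and 112 bases upstream in Cartpt, and it was present in 1.55% of 32851 such windows. The Nppc window held a TATA box 29 bases upstream, found in 12.4% of all windows, and the Gal window held an ETS core 30 bases upstream, found in 12% of all windows. The Tac1 and Npy windows held none of the 5 motifs. GC content was 51.2% for Tac1 and 69.2% for Npy, against a median of 52.4% over all windows.

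Total counts ranged from 3.07e+07 to 5.34e+07 per library. Levels are TMM-scaled CPM, a gene's reads as a share of the library's total, and they are compared between libraries and not between genes, because counts were not divided by transcript length. The targeted gene Fgf20 ranged from 3.11 to 5.92 CPM in TRAP het and from 0.825 to 3.02 CPM in TRAP mut libraries, with no overlap. Fgf20 reads thus persisted in libraries labelled Fgf20-/-, with means of 4.19 CPM in het and 2.24 CPM in mut TRAP libraries, and the labels do not describe the null allele. All 11 prosensory markers were measured, with a summed level of 1216 to 1757 CPM in TRAP het and 444 to 617 CPM in pre-TRAP het libraries. No gene of 15 cell type marker lists was at 0 in every library of a group. The filter on low counts kept Pnoc, Tac1, Npy, Gal and Nppc in each comparison and removed Sst and Cartpt.

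Pnoc levels in TRAP RNA did not overlap between genotypes. Across the 8 TRAP het libraries, Pnoc ranged from 2.17 CPM through a median of 3.49 CPM to 6.72 CPM. Across the 8 TRAP mut libraries it ranged from 0.620 CPM through a median of 1.40 CPM to 2.15 CPM. Every mut library thus lay below every het library, although the highest mut and the lowest het value were close. The mean was 3.99 ± 1.93 CPM (SD, n = 4) in het and 1.37 ± 0.634 CPM (SD, n = 4) in mut libraries of experiment 1. In experiment 2 it was 3.00 ± 0.622 CPM (SD, n = 4) in het and 1.26 ± 0.424 CPM (SD, n = 4) in mut libraries. That the groups did not overlap within either experiment follows from their separation over both, and adds nothing to it.

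Tac1 was lower in mut TRAP libraries with some overlap. It ranged from 4.31 CPM through a median of 6.02 CPM to 9.70 CPM in TRAP het libraries. It ranged from 2.11 CPM through a median of 2.71 CPM to 5.32 CPM in TRAP mut libraries. All 8 mut libraries lay below the het mean and 6 of the 8 lay below every het library, and the other 2 came from experiment 1. In experiment 2 the 4 mut libraries lay below the 4 het libraries, with means of 2.48 ± 0.312 CPM (SD, n = 4) and 5.53 ± 0.924 CPM (SD, n = 4). The share of all genes separated within 1 experiment was not counted.

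**Figure D1:**
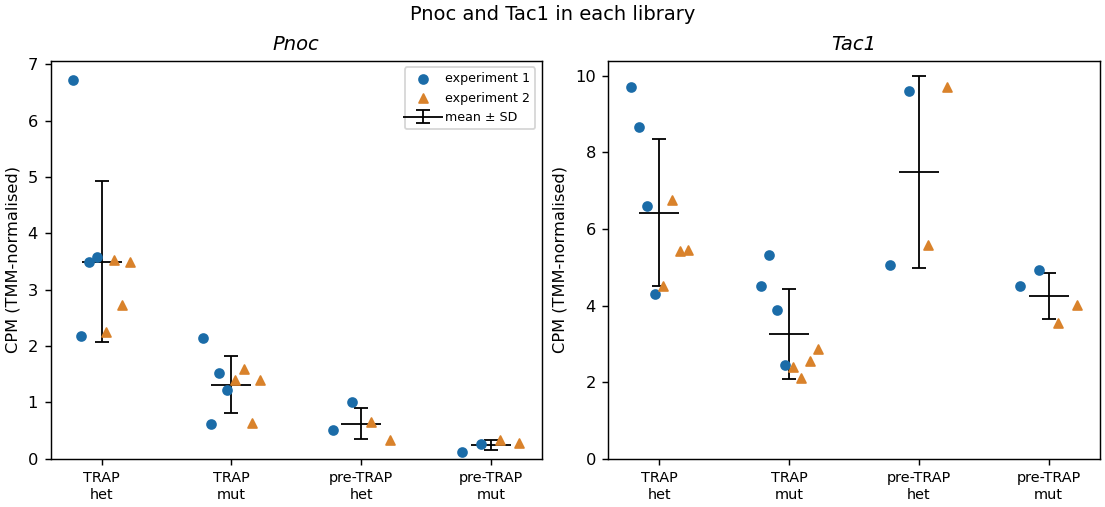
Level of Pnoc (left) and Tac1 (right) in each library, in TMM-scaled CPM on the vertical axis, for the 4 groups on the horizontal axis. Circles are experiment 1, triangles experiment 2, and the line with bars is the mean ± SD; TRAP mut libraries lie at 0.620 to 2.15 CPM for Pnoc, below all TRAP het libraries, and at 2.11 to 5.32 CPM for Tac1.

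These TRAP values chose the genes, so they are given as a description and no test is drawn from them. In the edgeR fit over all 16 TRAP libraries, mut libraries differed from het libraries by a log2 fold change of -1.41 ± 0.26 (SE) for Pnoc and -1.02 ± 0.18 (SE) for Tac1. Their Benjamini-Hochberg adjusted p-values of 0.0475 and 0.0352 in edgeR lay just inside the threshold of 0.05. Of the 21577 genes tested, 0.0185% passed in the higher direction, 0.0556% in the lower and 0.0742% in either, and every mut library lay below every het library for 0.0695%. Among the precursors, the value nearest outside the threshold was that of Npy, with a log2 fold change of -0.82 ± 0.25 (SE) and an edgeR adjusted p of 0.64. Gal had -0.11 ± 0.43 (SE) and Nppc had 0.64 ± 0.44 (SE), with 95% intervals of -1.01 to 0.80 and -0.29 to 1.56. The median log2 fold change was -0.82 over the 5 precursors and -0.02 over all genes tested.

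The 2 calls were sensitive to the libraries included. Pnoc was still called without het library 1, het library 9 or mut library 6, and lost the call when any of the other 13 libraries was left out, with log2 fold changes from -1.49 to -1.24. Tac1 was still called without het library 1, het library 15, mut library 6 or mut library 10, and lost the call without any of the other 12, with values from -1.06 to -0.95. Without the experiment term, edgeR's adjusted p was 0.093 for Pnoc and 0.182 for Tac1. Both stayed called under 7 other alternatives that kept every TRAP library, which remains a description because these values chose the genes. Fitted by itself, experiment 1 gave a log2 fold change of -1.53 for Pnoc and -0.85 for Tac1, and experiment 2 gave -1.26 and -1.16, with neither gene passing in either. Summed neuron markers ranged from 3449 to 6425 CPM in TRAP het and from 4730 to 6303 CPM in TRAP mut libraries, and 0 of 15 passed. With the mean log2 level of these 15 neuron markers, and not their sum, as a covariate, the log2 fold change was -1.16 for Pnoc and -0.88 for Tac1. Of the other cell type lists, only the prosensory and medial Kolliker organ lists held genes that passed between genotypes in TRAP RNA. Signs leaned to 1 side in several lists, without any gene passing in most of them. Values were above 0 for 13 of 15 neuron and 6 of 7 erythroid markers, and below 0 for 8 of 12 periotic mesenchyme markers. Of 11 prosensory markers 9 had negative values and Hey2 fell (-1.13). Their summed level was 1216 to 1757 CPM in het and 1354 to 1660 CPM in mut libraries, so the mut range lay inside the het range. Of 8 medial Kolliker organ markers Tectb fell (-1.91) while Epyc (1.21) and Calb1 (0.89) rose, with a summed level of 725 to 841 CPM in het and 622 to 781 CPM in mut libraries. The 6 roof and non-sensory markers tested all had positive values, with a median of 0.37, 0 of 6 passing and a summed level of 120 to 237 CPM in het and 126 to 310 CPM in mut libraries. The part of these cell types in the values of Pnoc and Tac1 was not tested.

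The pre-TRAP libraries were not used to name the genes. Pnoc was at 0.510 and 1.00 CPM in the pre-TRAP het libraries of experiment 1 and at 0.338 and 0.648 CPM in those of experiment 2. In the mut libraries it was at 0.124 and 0.267 CPM in experiment 1 and at 0.280 and 0.333 CPM in experiment 2. Every mut library was below every het library, but the highest mut value, 0.333 CPM, stood close to the lowest het value, 0.338 CPM, and the counts behind these values were 6 to 12 in mut and 12 to 42 in het libraries. The log2 fold change was -1.34 ± 0.44 (SE), with a 95% interval of -2.29 to -0.38.

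Tac1 was at 5.07 and 9.59 CPM in the pre-TRAP het libraries of experiment 1 and at 5.58 and 9.69 CPM in those of experiment 2. In the mut libraries it was at 4.52 and 4.92 CPM in experiment 1 and at 3.55 and 4.01 CPM in experiment 2. The groups did not overlap, and in each experiment 1 het library stood well above the other. The log2 fold change was -0.83 ± 0.24 (SE), with a 95% interval of -1.35 to -0.30.

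After adjustment over all 21954 genes, 0 of the 5 precursors tested passed in pre-TRAP RNA, where 0.00455% of genes passed. The edgeR p-values before adjustment were 0.00973 for Pnoc, 0.00477 for Tac1 and 0.0266 for Npy, and each had an adjusted p of 0.837. Over all genes 1048 had an unadjusted p under 0.05, and DESeq2 called 2 genes. Every mut library lay below every het library for 0.838% of the genes tested, Pnoc and Tac1 among them. A two-sided exact permutation test on log2(CPM + 0.5) gave p = 0.0286 for each of Pnoc and Tac1, the smallest p that 4 against 4 libraries allow and the one that non-overlapping groups always give. That test exchanged libraries across experiments. With libraries exchanged only within each experiment, a choice made after seeing the data, the exact permutation p was 0.0556 for each, the smallest of 36 arrangements, so a p under 0.05 could not be reached. The test across experiments gave 0.171 for Npy, 0.343 for Sst, 0.629 for Gal, 0.657 for Nppc and 1 for Cartpt, 7 tests in all with no adjustment. In bulk RNA, fewer cells that express a gene and less RNA per cell cannot be told apart. In pre-TRAP RNA 9 of 11 prosensory markers had a log2 fold change below 0, with a median of -0.35 and 0 of 11 passing. Values below 0 were also found for 7 of 9 otic epithelium, 6 of 7 supporting cell, 8 of 10 cartilage and 9 of 12 periotic mesenchyme markers. Their medians were -0.32, -0.11, -0.24 and -0.13, against -0.03 over all genes. Skeletal muscle and macrophage markers went the other way, with 7 of 8 above 0 in each list. The part of these cell types in the values of Pnoc and Tac1 was not tested.

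Npy had lower means in mut libraries in both kinds of RNA, without passing in either. In TRAP het libraries it ranged from 0.569 CPM through a median of 0.835 CPM to 1.28 CPM. In TRAP mut libraries it ranged from 0.285 CPM through a median of 0.522 CPM to 0.620 CPM, and 5 of the 8 mut libraries lay below every het library. In pre-TRAP het libraries it was at 8.5 and 9.07 CPM in experiment 1 and at 3.58 and 6.85 CPM in experiment 2. In pre-TRAP mut libraries it was at 4.98 and 6.14 CPM in experiment 1 and at 3.02 and 4.51 CPM in experiment 2. The pre-TRAP groups overlapped in experiment 2 and not in experiment 1, where the share of all genes so separated was not counted. The log2 fold change was -0.57 ± 0.23 (SE), with a 95% interval of -1.06 to -0.08.

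Gal and Nppc levels overlapped between genotypes in both kinds of RNA. In TRAP RNA 1 of 8 mut libraries lay below the het mean for Nppc and 5 of 8 for Gal. Mean Nppc in TRAP RNA was 0.178 CPM in het and 0.170 CPM in mut libraries of experiment 1. In experiment 2 it was 0.203 CPM in het (3 to 12 counts) and 0.476 CPM in mut libraries (8 to 38 counts). Gal was at 2.63 and 5.04 CPM in pre-TRAP het and at 4.51 and 4.58 CPM in pre-TRAP mut libraries of experiment 1. In experiment 2 it was at 1.30 and 1.75 CPM in het and at 1.5 and 2.35 CPM in mut libraries. Its levels thus followed the experiment, and the genotypes overlapped, with a log2 fold change of 0.28 and a 95% interval of -0.26 to 0.83. Nppc was at 0.765 and 0.931 CPM in pre-TRAP het and at 0.919 and 1.01 CPM in pre-TRAP mut libraries of experiment 1. In experiment 2 it was at 1.80 and 1.89 CPM in het and at 1.77 and 2.02 CPM in mut libraries. The genotypes overlapped within each experiment, and the log2 fold change was 0.11 with a 95% interval of -0.38 to 0.59.

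Sst and Cartpt were at the limit of detection. Sst had 0 to 4 counts in TRAP libraries, with 0 counts in 5 of 8 het and 5 of 8 mut libraries, and 0 to 10 counts in pre-TRAP libraries. Cartpt had 0 to 6 counts in TRAP libraries and 0 to 3 in pre-TRAP libraries, with 0 counts in 3 of 4 pre-TRAP het and 3 of 4 pre-TRAP mut libraries. A count of 0 allows up to 3 counts, or 0.0619 to 0.111 CPM in these libraries, so a difference in these 2 genes was not detectable at this depth.

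**Figure D2:**
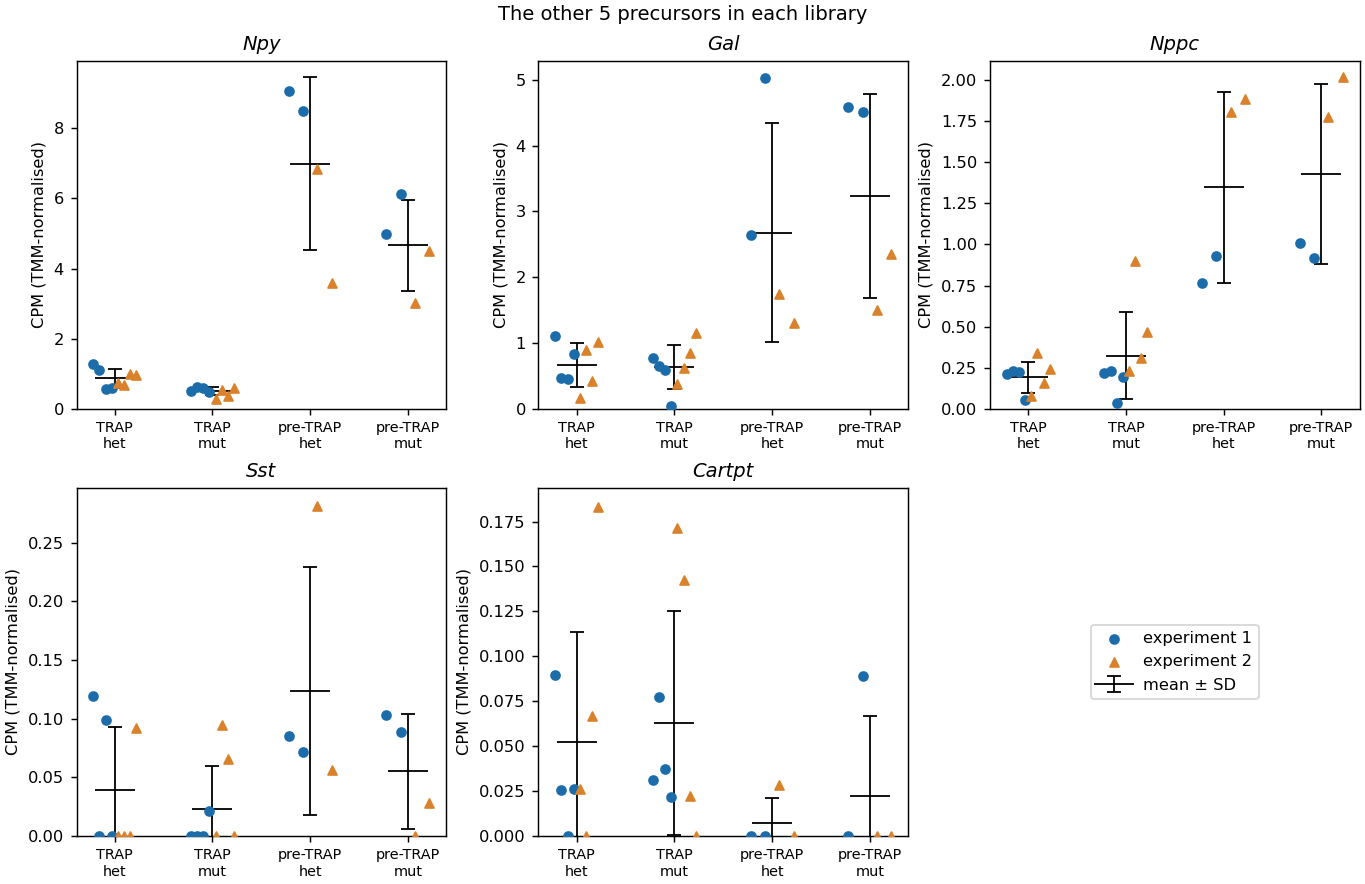
Level of Npy, Gal, Nppc, Sst and Cartpt in each library, in TMM-scaled CPM on the vertical axis, which differs between panels, for the 4 groups on the horizontal axis. Circles are experiment 1, triangles experiment 2, and the line with bars is the mean ± SD, with bars ending at 0 where they would pass it; all 16 TRAP libraries lie below all 8 pre-TRAP libraries for Npy and Gal.

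Genotype differences in TRAP and pre-TRAP RNA were set against each other by an interaction term. Of 24242 genes, 0% passed in edgeR, 302 had an unadjusted p under 0.05, and the precursors' values are a description because 1 arm chose them. The difference of the log2 fold changes, TRAP less pre-TRAP, was -0.09 with a 95% interval of -1.30 to 1.12 for Pnoc and -0.16 with an interval of -0.82 to 0.51 for Tac1. In the pre-TRAP libraries the genotype by experiment interaction called 0% of 21954 genes in edgeR, with 178 at an unadjusted p under 0.05, and Pnoc had an estimate of 1.32 ± 0.85 (SE). Fitted by itself, experiment 1 gave Pnoc a pre-TRAP log2 fold change of -1.98, and experiment 2 gave -0.66.

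**Figure D3:**
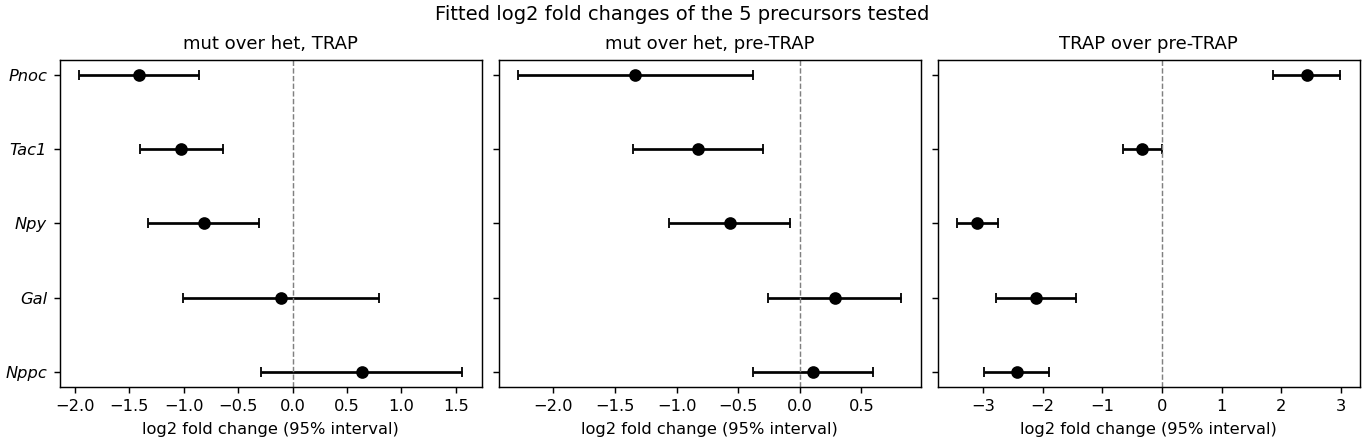
Fitted log2 fold changes of the 5 precursors tested, with 95% intervals, for mut over het in TRAP (left), mut over het in pre-TRAP (middle) and TRAP over pre-TRAP (right); each horizontal axis has its own range and the dashed line marks 0. Intervals are before adjustment. Those of Pnoc, Tac1 and Npy lie below 0 in both genotype panels (Pnoc at -1.41 and -1.34). After adjustment Npy passed in neither of these panels, and none of the 5 passed in pre-TRAP RNA. In the right panel the Pnoc interval lies above 0 (2.43) and the other 4 below it, but that of Tac1 ends just short of 0 and Tac1 did not pass.

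Collection method separated the precursors. Pnoc was higher in TRAP RNA, with a log2 fold change of TRAP over pre-TRAP of 2.43 ± 0.27 (SE), or 5.38-fold, and an edgeR adjusted p of 2.13e-08. Npy fell by 3.10 on the log2 scale (SE 0.17, edgeR adjusted p 1.38e-14), or 8.56-fold lower in TRAP. Nppc fell by 2.44 (SE 0.27, edgeR adjusted p 1.30e-08), or 5.42-fold, and Gal fell by 2.11 (SE 0.33, edgeR adjusted p 3.48e-06), or 4.31-fold. Of the 5 tested, 1 rose and 3 fell, against a background of 27.9% of 24242 genes higher, 31.2% lower and 59.1% in either direction, so passing this test was common. In both genotypes every TRAP library lay above every pre-TRAP library of the same genotype for Pnoc, while pre-TRAP het and TRAP mut libraries overlapped. Over all genes, 6.33% had every TRAP library above every pre-TRAP library, which was not so for Pnoc. The share of all genes separated within each genotype, as Pnoc was, was not counted.

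Tac1 did not pass. Its log2 fold change of TRAP over pre-TRAP was -0.33, with a 95% interval of -0.66 to -5.16e-05 before adjustment and an edgeR adjusted p of 0.0797. It passed without TRAP mut library 10 (-0.38, edgeR adjusted p 0.0409) or without pre-TRAP het library 19 (-0.39, edgeR adjusted p 0.0331). Of the 5 precursors tested, its estimate was the nearest to 0. All 16 TRAP libraries lay below all 8 pre-TRAP libraries for Npy and Gal, as was so for 8.32% of genes, and 15 of 16 did for Nppc. The highest Nppc value in TRAP RNA, 0.902 CPM, was that of mut library 4.

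The marker lists of the cell types in the otocyst moved with this comparison. Neuron markers had a median log2 value of 2.62, with 14 of 15 higher and Ntrk2 lower, hair cell markers had 2.92 and medial Kolliker organ markers 1.93. Medians were 1.28 for the prosensory domain, 1.00 for supporting cells and 0.60 for the otic epithelium. They were -0.92 for skeletal muscle, with values in both directions, -1.25 for Schwann cell and glia markers, -1.40 for roof and non-sensory epithelium and -1.58 for cartilage. The lowest medians were -2.10 for periotic mesenchyme, -2.29 for endothelium, -2.58 for melanocytes, -2.74 for macrophages and -3.28 for erythroid cells. Pnoc, at 2.43, lay between the medians of medial Kolliker organ and neuron markers, and Gal, Nppc and Npy, at -2.11 to -3.10, lay between those of periotic mesenchyme and erythroid cells. The part of cell composition in these values was not tested. In summed level, neuron markers held 3449 to 6425 CPM in TRAP het and 667 to 1020 CPM in pre-TRAP het libraries, and erythroid markers 324 to 883 CPM and 4933 to 10071 CPM.

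**Figure D4:**
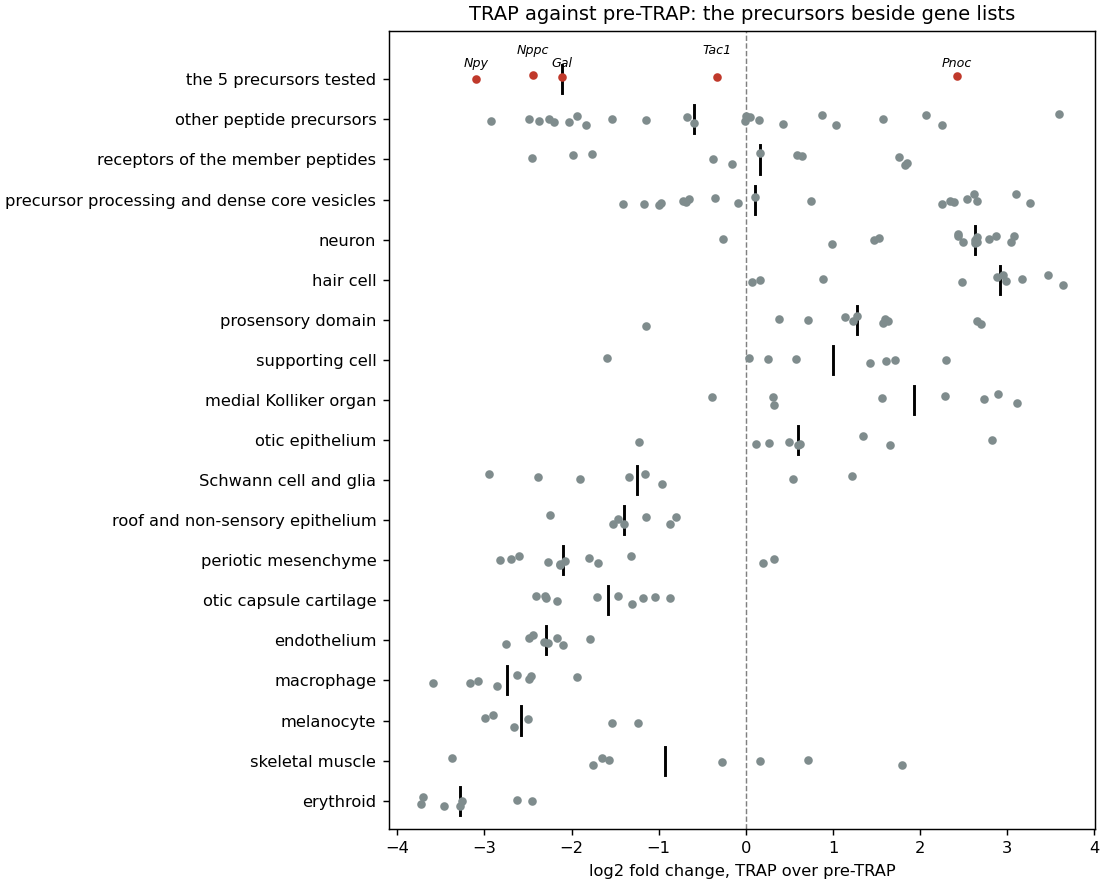
Log2 fold change of TRAP over pre-TRAP on the horizontal axis for each tested gene (points) of the peptide and cell type lists on the vertical axis, with the list's median as a vertical bar. Pnoc lies at 2.43, between the medians of medial Kolliker organ (1.93) and neuron (2.62) markers and below that of hair cell markers (2.92). Tac1 lies at -0.33, and Gal, Nppc and Npy between -2.11 and -3.10.

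Other genes of the peptide pathway were counted in the same comparisons. Of 57 other peptide precursors 23 were tested between TRAP and pre-TRAP RNA, of which 5 rose and 10 fell, and their median log2 fold change was -0.60 against -0.01 over all genes. Over all genes 27.9% rose and 31.2% fell, so the count of those that passed, 15 of 23, was near the 59.1% of the background. Those that rose were Uts2b (3.60), the opioid precursors Pdyn (2.25) and Pomc (1.03), the thyrotropin-releasing hormone gene Trh (2.07) and the endothelin gene Edn1 (1.58). Those that fell included the enkephalin precursor Penk (-2.49), the peptide YY gene Pyy (-2.93) and the calcitonin gene-related peptide gene Calca (-2.26). The other 7 were Calcb (-1.94), Npff (-2.20), Npb (-2.03), Edn3 (-1.15), Apln (-1.54), Pthlh (-1.83) and Agt (-2.38). Penk thus moved opposite to Pnoc, Pdyn and Pomc, the other genes of the opioid precursor family.

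Receptors for the 7 peptides were tested for 11 of 19 genes, of which 4 rose and 3 fell in TRAP RNA, again near the background of 59.1% in either direction. The nociceptin receptor Oprl1 rose (1.76 ± 0.17, SE), as did Pnoc, which encodes its ligand. The substance P receptor Tacr1 fell (-1.98 ± 0.57, SE). Npr2, which transmits the signal of C-type natriuretic peptide, rose (0.64 ± 0.14, SE), while Npr3, which clears it, fell (-1.77 ± 0.25, SE). The somatostatin receptors Sstr3 (1.82) and Sstr4 (-2.45) moved in opposite directions, and the galanin receptor Galr2 rose (1.85).

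Genes of precursor processing and dense core vesicles moved in both directions. Of 20 genes 19 were tested, of which 9 rose and 8 fell in TRAP RNA, against 27.9% and 31.2% of all genes. The prohormone convertase Pcsk2 (2.65), its chaperone Scg5 (3.10), the convertase inhibitor precursor Pcsk1n (3.26), the granins Chga (2.39), Chgb (2.34), Scg3 (2.54) and Vgf (2.62), and the vesicle priming factors Cadps (2.25) and Cadps2 (0.75) rose. The broadly expressed convertases Furin (-0.72), Pcsk5 (-1.0), Pcsk6 (-1.41) and Pcsk7 (-0.66), the carboxypeptidases Cpe (-0.36) and Cpd (-0.69), the amidating enzyme Pam (-0.97) and the glutaminyl cyclase Qpct (-1.17) fell.

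None of these pathway genes passed between genotypes in edgeR. In TRAP RNA 0 of 17 other precursors, 0 of 8 receptors and 0 of 18 processing genes passed, with medians of 0.03, 0.06 and 0.04 against -0.02 over all genes, and 813 genes of all had an unadjusted p under 0.05. In pre-TRAP RNA 0 of 19, 0 of 7 and 0 of 17 passed, with medians of 0.07, -0.16 and -0.18.

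The experiments differed for some precursors. In pre-TRAP RNA, Gal fell by 1.28 on the log2 scale from experiment 1 to experiment 2 (SE 0.25, edgeR adjusted p 0.00432), and Nppc rose by 1.05 (SE 0.23, edgeR adjusted p 0.00713), 2 of 5 tested, against 9.74% of all genes higher, 4.97% lower and 14.7% in either direction. For both genes the 4 libraries of each experiment did not overlap, and the share of all genes separated in this way was not counted. In TRAP RNA 0 of 5 passed, against 14.1% of all genes higher, 8.81% lower and 23% in either direction, and Tac1 had -0.50 with an edgeR adjusted p of 0.052. Tac1 passed with DESeq2 size factors in edgeR (adjusted p 0.0423), without the filter on low counts (0.0497) and in DESeq2's Wald test (0.025), and in edgeR without het library 3 (0.0273), het library 15 (0.0134) or mut library 16 (0.0228). The log2 fold change of Gal in TRAP over pre-TRAP RNA was -2.84 when fitted on experiment 1 and -1.28 on experiment 2. A method by experiment interaction, added after these values were seen, gave 1.47 ± 0.62 (SE) for Gal with an unadjusted edgeR p of 0.0253 and an adjusted p of 1, and called 0.0289% of genes higher, 0.00825% lower and 0.0371% in either direction.

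Across the 16 TRAP libraries, the gene whose log2(CPM + 0.5) followed Pnoc most closely of 14600 genes ranked was Crym, which encodes mu-crystallin, a thyroid hormone-binding protein (Pearson r = 0.913, Spearman rho = 0.90). The next were BC064078 (r = 0.864), Urah (r = 0.848), Cpxm2 (r = 0.832) and Pantr1 (r = 0.785). Part of each correlation is the genotype difference itself: after the means of group and experiment were taken out, r was 0.748 for Crym and 0.388 to 0.598 for the other 4. Crym followed Pnoc within the 8 het libraries (r = 0.865) and within the 8 mut libraries (r = 0.645). Without the 2 libraries farthest from the median of Pnoc, r with Crym was 0.867.

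The gene that followed Tac1 most closely was Car13, which encodes a carbonic anhydrase (r = 0.857, rho = 0.897), with r = 0.569 once group and experiment means were taken out and 0.799 without the 2 farthest libraries. Within the het libraries r with Car13 was 0.478, and within the mut libraries it was 0.826. AU020206 (r = 0.820), Cadps2 (r = 0.811) and Gna14 (r = 0.807) were among the next. After group and experiment means were taken out, r was 0.441 for AU020206, 0.218 for Cadps2 and 0.247 for Gna14, so much of these correlations was the group and experiment difference. Pnoc and Tac1 followed each other with r = 0.676 over all 16 libraries, but with 0.429 within het, -0.094 within mut and 0.075 after group and experiment means were taken out. These correlations are a description over libraries that share genotype, experiment and depth, and carry no p. The other 5 precursors had a mean under 2 CPM in TRAP libraries and were not ranked.

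**Figure D5:**
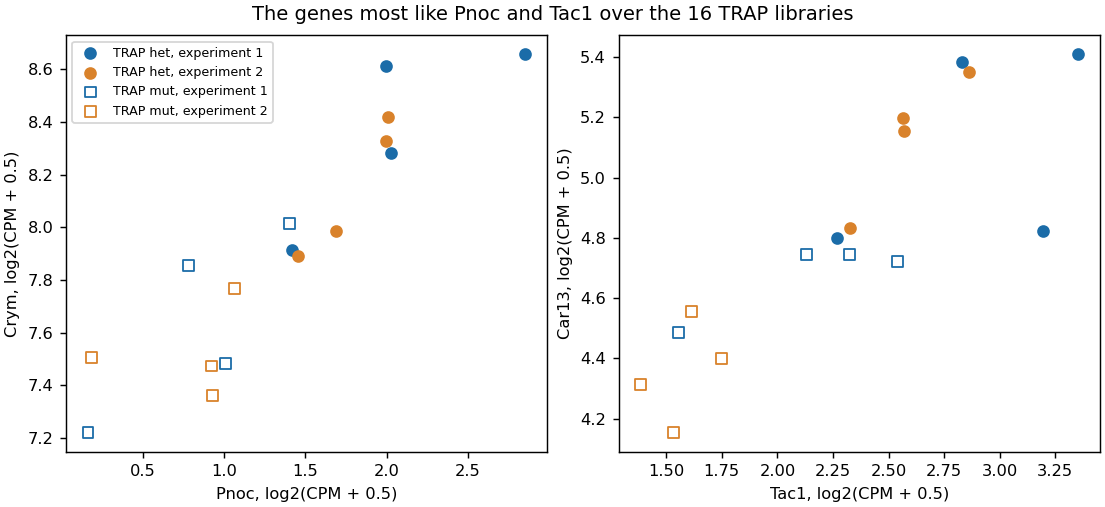
Level of Crym against Pnoc (left) and of Car13 against Tac1 (right) in the 16 TRAP libraries, on log2(CPM + 0.5) scales. Filled circles are het, open squares mut, blue experiment 1 and orange experiment 2; the points of Crym and Pnoc follow a line over both genotypes (r = 0.913), as do those of Car13 and Tac1 (r = 0.857) with 1 het library of high Tac1 off the line.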

How the data were processed

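RNA was taken from pools of ventral otocysts by TRAP or as pre-TRAP RNA, purified with the Picopure kit and made into libraries with the Clontech SMARTer kit, per the labels' protocols. The authors deposited 1 table of whole-number counts per Ensembl gene for 24 libraries. STAR, DESeq2 and the build GRCm38.p5 are named in the submitters' processing notes. The counting program, annotation and strand setting were not given in the sources used here, so reads of overlapping or antisense genes cannot be told apart. Of 53946 gene identifiers, 53274 matched a symbol in the reference tables.

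The 7 genes and all gene lists were chosen with earlier results of these data known. Counts were scaled by TMM, filtered with filterByExpr (minimum count 10) and tested in edgeR 4.0.16 (R 4.3.3) with quasi-likelihood tests and experiment as a covariate, with Benjamini-Hochberg adjustment over all genes tested and a threshold of 0.05. Standard errors were taken from the F statistic, and 95% intervals from the fit's degrees of freedom. limma 3.58.1 (voom with quality weights) and DESeq2 1.42.0 served as alternatives. The scripts were checked on simulated counts. Named list genes were those called or, failing that, the 3 with the highest mean in TRAP RNA; further called genes are given as counts. Floors cover counting error only. No 2 libraries of a group agreed within sampling noise (68 pairs, chi-square per degree of freedom of at least 26.3). The 5 genes most like a precursor were ranked, and 1 of those ranked for Tac1 is not reported here.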

Additional observations from a re-analysis of the deposited data

Results flagged for a closer look

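Pnoc in TRAP het library 5 stood at 6.72 CPM, far above the other 7 het libraries, of which the next highest was at 3.58 CPM. The gap was 0.691 of the group's range, against Dixon's critical value of 0.526 for 8 samples. It was the 1 value past the limit among 20 groups checked, and chance alone puts about 1 group in 20 past it. Without it, mut over het in TRAP RNA gave a log2 fold change of -1.24 and edgeR's adjusted p was 0.0815. The same library had the highest Crym level of the 16 TRAP libraries, 403 CPM, and the lowest TMM factor of all, 0.801.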

How the results depend on the processing

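Pnoc and Tac1 stayed lower in mut than in het libraries under every alternative run in TRAP and in pre-TRAP RNA. No paired analysis was possible because the labels do not tie a library of 1 group to a library of another. Comparisons of TRAP with pre-TRAP RNA therefore treated all libraries as separate pools, which the labels do not state. The number of genes called between genotypes in TRAP RNA, 16, became 27 without the filter, 53 with DESeq2's Wald test, 31 with limma voom, 4 without the experiment term, 2 in experiment 1 alone, 2 in experiment 2 alone, 35 with all 24 libraries in 1 fit, 228 with neuron level as covariate and 6 to 16 with 1 library left out. In pre-TRAP RNA, 1 gene became 2 with DESeq2's Wald test, 0 without the experiment term, 0 in experiment 2 alone and 1 to 2 with 1 library left out. TRAP against pre-TRAP gave 14320 genes, and 9249 in het libraries alone. Experiment 2 against 1 in pre-TRAP RNA gave 3231, and 1995 to 4925 with 1 library left out. The genotype by method interaction called 1 gene without the filter, and the genotype by experiment interaction 0 to 31 with 1 library left out. The method by experiment interaction called 9 genes, 39 without the filter, 45 with DESeq2, 49 with limma voom and 3 to 13 with 1 library left out.

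These values changed sign. Between genotypes in TRAP RNA, Gal was 0.28 in experiment 2 alone and -0.29 to 0.11 with 1 library left out. For experiment 2 against 1, limma voom gave 0.049 for Npy in TRAP and 0.37 for Pnoc in pre-TRAP RNA, and with 1 pre-TRAP library left out Pnoc ranged from -0.36 to 0.34 and Tac1 from -0.35 to 0.039. In the genotype by method interaction, experiment 1 alone gave 0.43 for Pnoc and -0.24 for Nppc, and with 1 library left out Pnoc ranged from -0.39 to 0.13 and Tac1 from -0.42 to 0.0054. In the genotype by experiment interaction with 1 library left out, Tac1 ranged from -0.91 to 0.078, Npy from -0.20 to 0.72 and Gal from -0.45 to 0.46. In the method by experiment interaction, Pnoc ranged from -0.62 to 0.078. The causes were not tested. Low counts limit Pnoc in pre-TRAP RNA (6 to 42 counts) and Nppc in TRAP RNA (1 to 38 counts).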
